A study of Homo sapiens with 2 samples.

Results

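Genes for cytokines, chemokines, their receptors, complement proteins and other secreted proteins of inflammation were read in cells grown out of embryoid bodies, with and without the inhibitor SB-431542. The cells came from HUES9, an established human embryonic stem cell line. The group was defined by name and holds 47 of the 19775 genes that a probe set reads alone, covered by 96 of the 54675 probe sets on each array. The HUES9 cells, at passage 32, were grown as floating embryoid bodies for 10 days, then moved to fibronectin-coated plates and a chemically defined medium. SB-OG cells received SB-431542, which blocks the receptor kinases that carry TGF-β, activin and nodal signals, at 10 µM as embryoid bodies and at 1 µM during outgrowth. Control-OG cells received the solvent DMSO at 0.01%. At outgrowth passage 5, 3 samples of a condition were mixed, and the mixture was read on 1 Affymetrix array, so each condition has n = 1. No value below has a replicate error, and no test between the conditions was possible.

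Cytokines and chemokines are secreted proteins that act on receptors of nearby cells, chemokines by directing cell movement. The IL-6 family signals through the shared receptor chain gp130 and the JAK-STAT pathway, and IL-1 family ligands signal through IL-1 receptors to NF-κB. Complement is a protease cascade that ends in attack on membranes, and host cells carry inhibitors that stop it on their own surface. Fibroblasts and other stromal cells are known sources of many of these proteins.

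The intensity of a probe set is its brightness in linear units and is compared only with the same probe set on the other array. Background was the level under which 95% of 213 probe sets for gene families taken as not used in these cells lay, which was 32.6 for control-OG and 27.6 for SB-OG. Where a pair of intensities is given for a gene, the first is control-OG and the second SB-OG. A value under that level was raised to it before a difference was taken, so a fold written "at least" is a lower bound. A gene was represented by its brightest probe set, that with the largest log2 intensity averaged over the 2 arrays, and a difference is its log2 intensity on SB-OG less that on control-OG, so that a negative value means lower with the inhibitor. Differences between probe sets of one gene above background on both arrays had an SD of 0.46. This measures spread between probe sets on the same 2 arrays, and holds no error between arrays or cultures. The 3′ to 5′ ratio of GAPDH signal was 0.995 in the control culture and 0.958 with the inhibitor, and that of ACTB was 1.65 and 1.55. The series title calls the cells mesodermal. Of 12 fibroblast markers, all were above background, 8 of them lower by 2-fold or more in SB-OG, while 11 of 12 skeletal muscle markers were higher by 2-fold or more. Of all genes above background on either array, 13.0% were lower and 12.4% higher by 2-fold or more. Of 7 pluripotency markers, 2 were above background: SOX2 (14.2 and 147) was higher in SB-OG by at least 4.52-fold, and DNMT3B was within 2-fold (120 and 149), while the other probe set of SOX2 gave -0.07. NANOG was under background on both arrays. In bulk samples such as these, fewer cells of a type and less RNA per cell cannot be told apart.

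Most detected genes of receptors, complement and secreted inflammation proteins were lower in SB-OG, whereas few chemokine and cytokine genes were clearly above background on both arrays. Of the 47 genes, 40 passed background somewhere: 23 on both arrays, 14 on control-OG only and 3 on SB-OG only. A gene above it on 1 array only could pass 2-fold in at most 1 direction. It could pass in neither where its value was less than 2-fold above the other array's background level. Such a gene was counted as within 2-fold, though only a lower bound on its difference was known. Lower in SB-OG by 2-fold or more were 21 of the 40, a share of 52.5%, beside 13.0% of all 12499 genes that passed background on either array. Higher by 2-fold or more were 3, or 7.50%, beside 12.4%. Among the 23 genes measured on both arrays, 13 were lower, beside 12.3% of 10399 such genes, and 2 were higher, beside 10.8%. The median difference of the 40 was -1.20, and that of all genes above background was -0.02. Without any floor or filter, the brightest probe set read lower on SB-OG for 37 of the 47 genes (78.7%) and for 52.1% of all genes. Of the 23 chemokine and cytokine genes, 17 passed background, 5 of them on both arrays. They made up 3 of the 21 lower genes and 2 of the 3 higher ones. The other 24 genes, 23 of them past background and 18 on both arrays, gave 18 lower and 1 higher. Among genes measured on both arrays, 0 of the 5 were lower and 1 was higher, against 13 and 1 of the 18. Several chemokine and cytokine genes were too dim to be called lower, so these counts do not show that the classes responded differently.

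**Figure D1:**
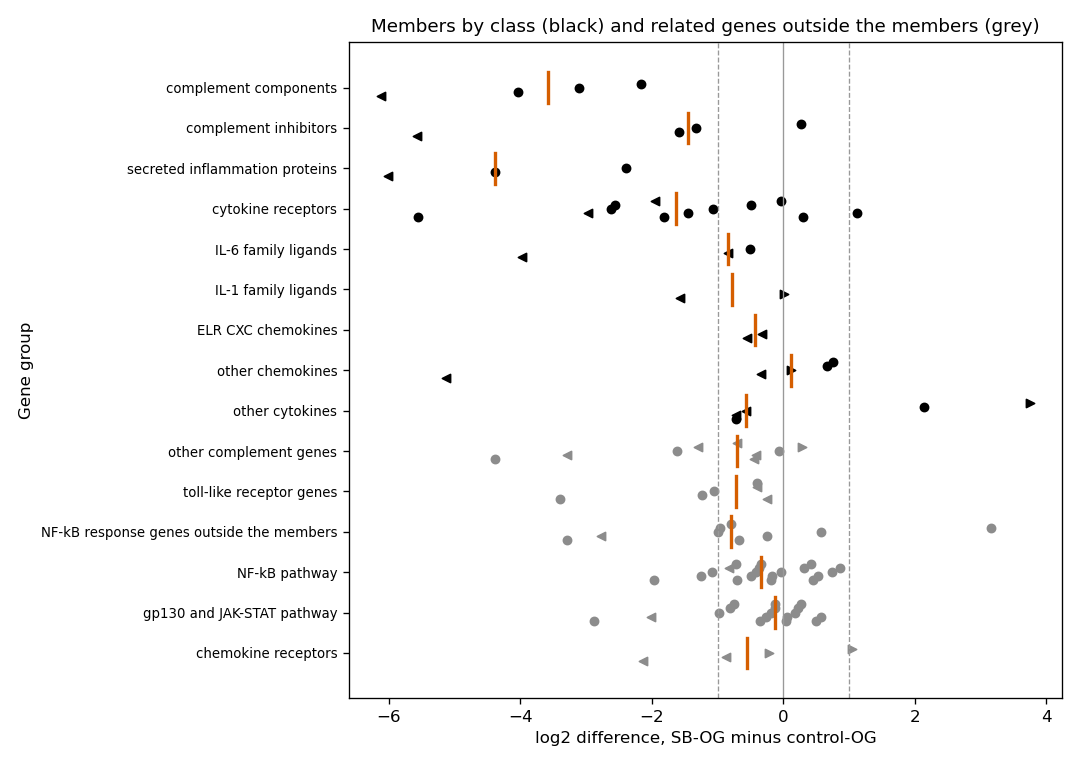
Differences on the log2 scale (SB-OG minus control-OG) for each gene above background on either array, by class of the 47 genes (black) and for related gene lists outside them (grey); arrowheads are bounds for genes above background on 1 array only, pointing to where a larger difference would lie, orange bars are medians and dashed lines mark 2-fold. Complement components have a median of -3.57 and lie wholly below -2, while the NF-κB pathway list is spread around a median of -0.34.

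Of 9 complement genes, 8 were above background and 1 was under it. Of the 8, 7 (87.5%) were lower in SB-OG by 2-fold or more, beside 13.0% of all genes, and 1 was within 2-fold. C3, the component on which all routes of complement activation meet, read 1911 in the control culture and 4.88 with the inhibitor. It was bright in the control and under background with the inhibitor, at least 69.2-fold lower. C1S, a protease of the classical pathway's C1 complex, went from 4749 to 288, a 16.5-fold difference, and its other probe set gave -4.08 beside -4.04. C1R, the partner protease that activates C1s, read 987 in the control culture and 115 with the inhibitor, 8.60-fold lower. C1R and C1S are neighbours on chromosome 12 with no protein-coding gene between them, and both remained above background on SB-OG. CFB, factor B of the alternative pathway's convertase, was at 193 and 42.9, a 4.50-fold difference. Its other probe set was under background on both arrays, and the mean of the 2 probe sets gave -0.42. CFD, the protease that cleaves factor B, was under background on both arrays, at 31.9 and 21.9.

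The 3 surface inhibitors of complement were lower as well, CD55 by the largest fold. CD55, which speeds the decay of C3 convertases, went from 1318 on control-OG to 21.6 on SB-OG, at least 47.7-fold lower. Its other probe sets stood at or below -4.07 and -4.89, so all 3 were bright on control-OG and under background on SB-OG. CD46, a cofactor for the cleavage of C3b, read 2208 and 877, a 2.52-fold difference, and its other probe sets were at -1.31 and -1.30. CD59, which blocks the final membrane attack complex, read 3646 and 1219, a 2.99-fold difference. Of its 4 other probe sets, 3 lay between -1.64 and -1.36, and a dim one, at 42.9 and 47.4, gave 0.14. CD46 and CD59 thus kept high signals on SB-OG, while CD55, with 3 protein-coding genes between it and CD46 on chromosome 1, did not. The call for CD46 ended with a rescaling of SB-OG on the hybridisation controls, by which every gene gained 0.47 and CD46 stood at -0.86. SERPING1, the secreted inhibitor of C1r and C1s, was at 136 and 163, a difference of 0.26.

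Complement genes outside the 47 gave 9 of 24 above background. Of the 9, 4 (44.4%) were at least 2-fold lower, beside 13.0% of all genes, and none was higher. After rescaling on the hybridisation controls 3 were lower. MASP1, a protease of the lectin pathway, was 20.8-fold lower, at 949 and 45.6, with its other probe sets above background at -1.88 and at or below -0.70. C1RL, a C1r-like protease, was at least 9.81-fold lower and the inhibitor gene CLU, encoding clusterin, 3.07-fold. C4BPB, a subunit of a C4b-binding inhibitor, was at least 2.45-fold lower, and at -0.82 after that rescaling. A second probe set of C1RL, close to background on control-OG (36.0), stood at or below -0.38.

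**Figure D2:**
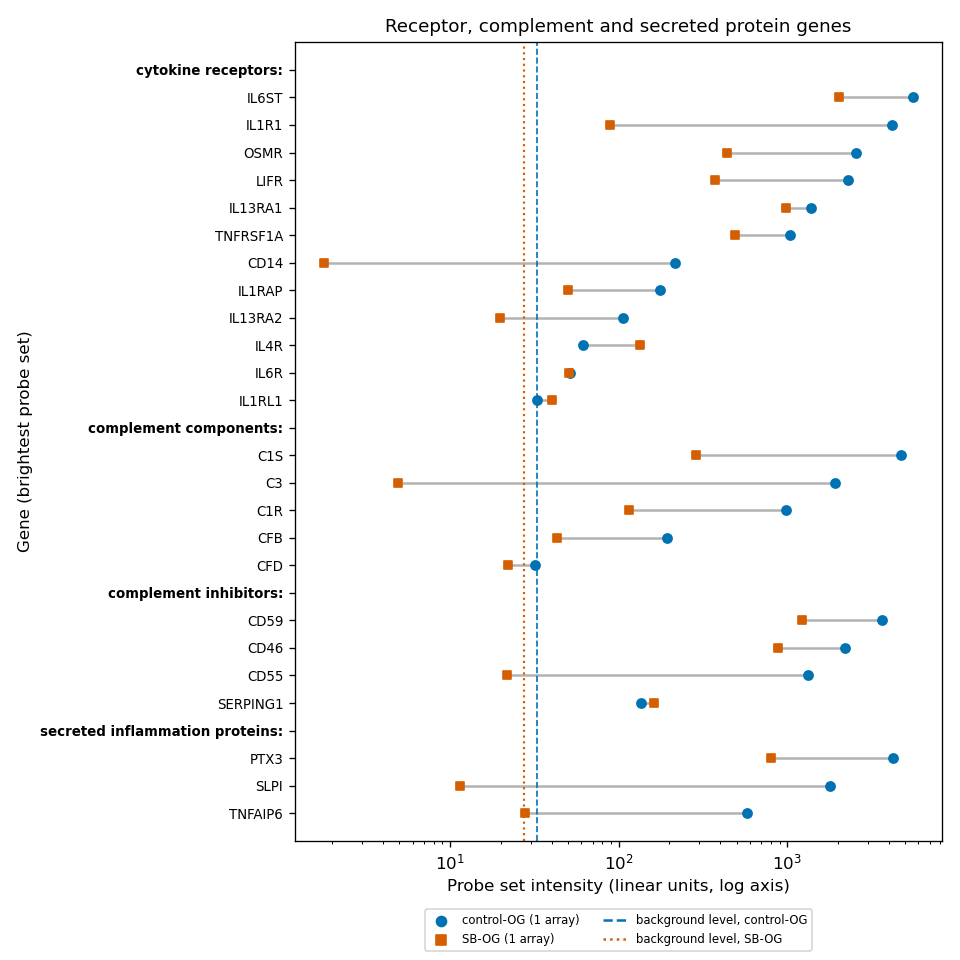
Intensity of the brightest probe set on control-OG (blue circles) and SB-OG (orange squares), on a log axis, for receptor, complement and secreted protein genes, 1 array per condition; vertical lines are the background levels of 32.6 and 27.6. C3, CD55, SLPI and CD14 cross from well above background on control-OG to below it on SB-OG, while IL6ST and CD59 stay far above it on both.

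The receptor genes gave 8 lower (66.7%), 1 higher (8.33%) and 3 within 2-fold in SB-OG out of 12. Of all genes above background, 13.0% were lower and 12.4% higher. By its brightest probe set each of the 12 was above background on control-OG, IL1RL1 only just. Only 1 of 4 probe sets of IL1RL1 and 1 of 3 of IL6R passed background on either array. IL1R1, the signalling receptor for IL-1, went from 4192 on control-OG to 89.1 on SB-OG, 47.1-fold lower, with its dimmer probe set at -3.37 or below. Its co-receptor IL1RAP read 176 and 50.2, 3.51-fold lower, and its other probe set gave -1.78 beside -1.81. IL1RL1, the receptor for IL-33, is separated from IL1R1 by 1 protein-coding gene on chromosome 2 and was near background on both arrays, at 32.6 and 40.1. The IL-1 receptor and its co-receptor were thus both lower, IL1R1 by the larger fold.

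Of the receptor chains of the IL-6 family, IL6ST, LIFR and OSMR were lower together, while IL6R and IL11RA were not. IL6ST, which encodes gp130, read 5535 in the control culture and 2025 with the inhibitor, a 2.73-fold difference. Its 4 other probe sets above background gave differences from -2.53 to -1.67, each larger than the -1.45 of the brightest one. LIFR, the receptor chain for LIF, read 2297 and 374, 6.13-fold lower, with other probe sets from -2.86 to -1.87. OSMR, the receptor chain for oncostatin M, read 2557 and 436, 5.86-fold lower, and its other probe sets gave -2.19 and -2.02. LIFR and OSMR are neighbours on chromosome 5, and all 7 of their probe sets above background were at least 2-fold lower. IL6R, the ligand-binding chain for IL-6 itself, stood apart at 51.6 and 50.4, a difference of -0.03 that turned positive after centring (0.02) and after rescaling on the hybridisation controls (0.44). With that rescaling IL6ST was just under 2-fold lower, at -0.98.

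Other receptors differed in both directions. CD14, a co-receptor for bacterial lipopolysaccharide, read 216 in the control culture and 1.79 with the inhibitor, at least 7.81-fold lower. IL13RA2, a decoy receptor for IL-13, was at least 3.85-fold lower, at 106 and 19.8, and was at -0.46 with a higher background level. TNFRSF1A, the main receptor for TNF, was 2.11-fold lower, at 1035 and 491, and at -0.61 after rescaling on the hybridisation controls. IL4R, the receptor chain for IL-4 and IL-13, was the receptor gene that was higher in SB-OG, at 61.4 and 133, a 2.17-fold difference that was 0.98 on the log2 scale after quantile normalization. IL13RA1, its partner chain, was within 2-fold by its brightest probe set (1376 and 979, -0.49), while its other probe sets gave -1.20, -1.11 and -0.88. IL4R thus read higher while all 4 probe sets of IL13RA1 read lower, the brightest at -0.02 after rescaling on the hybridisation controls.

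**Figure D3:**
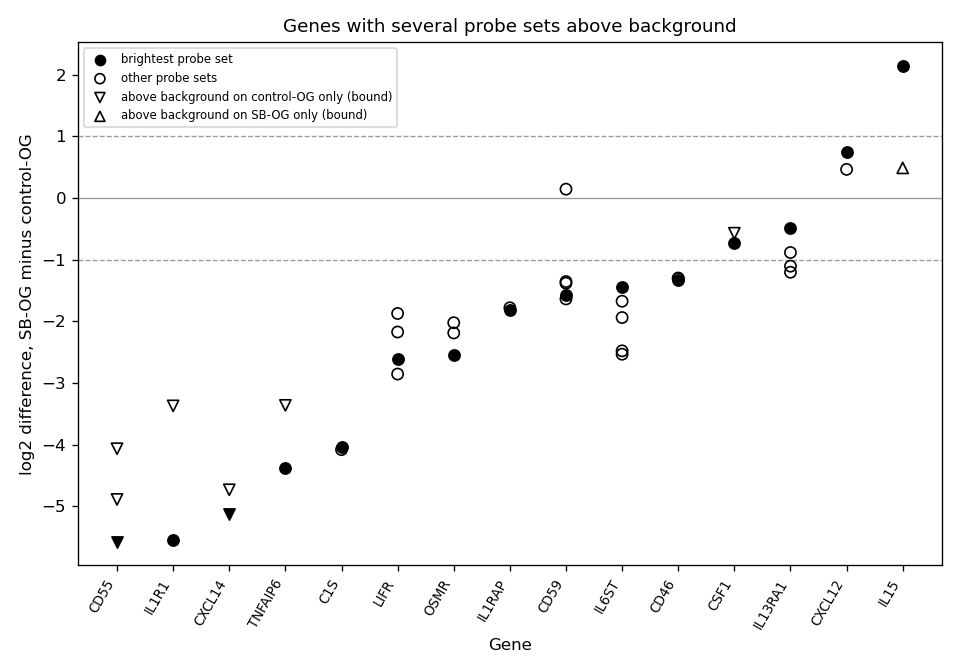
Differences on the log2 scale (SB-OG minus control-OG) of every probe set above background, for the 15 genes with more than 1 such probe set; filled symbols are the brightest probe set, triangles are lower bounds and dashed lines mark 2-fold. All 5 probe sets of IL6ST, all 4 of LIFR and all 3 of OSMR lie below -1, and 1 dim probe set of CD59 lies above 0.

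All 3 genes of secreted inflammation proteins were lower in SB-OG by 2-fold or more, beside 13.0% of all genes. SLPI, an inhibitor of neutrophil proteases, went from 1785 on control-OG to 11.4 on SB-OG, at least 64.7-fold lower. TNFAIP6, a hyaluronan-binding protein induced by TNF and IL-1, went from 576 to 27.6, at the background level, a 20.9-fold difference, with its other probe set at -3.37 or below. PTX3, a pentraxin that binds C1q and microbes, went from 4229 to 804, a 5.26-fold difference that left it well above background on SB-OG.

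The IL-6 family ligands were dim apart from LIF. LIF, which maintains several stem and progenitor cells through LIFR and gp130, read 434 in the control culture and 15.4 with the inhibitor, at least 15.7-fold lower. IL6, a cytokine of fever and acute-phase responses, was at 87.6 and 61.9, a difference of -0.50. IL11, a cytokine known as a target of TGF-β in fibroblasts, was above background on control-OG only, at 49.7 and 18.0, at least 1.80-fold lower, and its other probe set was under background on both. LIF and its receptor chains were thus all lower, while IL6 and IL6R were within 2-fold.

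Genes of the gp130 and JAK-STAT pathway outside the 47 had 17 of 20 above background. Of the 17, 2 were at least 2-fold lower, or 11.8%, and none higher, beside 13.0% lower and 12.4% higher of all genes. The median was -0.13, and it became 0.34 after rescaling on the hybridisation controls. SOCS3, the feedback inhibitor induced by gp130 signalling, read 1088 and 148, 7.33-fold lower, while its other probe sets, both near 60 on control-OG, gave -0.70 and a bound of -1.13. CTF1, encoding the gp130 ligand cardiotrophin, was at least 4.03-fold lower. The kinase JAK1 was at 1576 and 1623, and the transcription factor STAT3 at 1214 and 1261.

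Of the IL-1 family ligands, IL18 was the only gene above background on control-OG. It read 82.0 in the control culture and 12.8 with the inhibitor, at least 2.97-fold lower, and was at -0.08 with a higher background level. IL1B was just above background on SB-OG, at 20.5 and 33.0, and its other probe set was under it on both arrays. IL1A read 9.68 and 1.20 and the alarmin gene IL33 10.7 and 5.55, both under background. IL1A and IL1B were thus both under background on control-OG, the array on which IL1R1 was high.

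The CXC chemokines with an ELR motif, which attract neutrophils through CXCR1 and CXCR2, were at or near background on both arrays. CXCL1 read 40.5 in the control culture and 24.6 with the inhibitor, at least 1.47-fold lower, and CXCL8, also called IL-8, 34.6 and 2.06, at least 1.25-fold lower. Bounds of this size come from a bright value close to the background level. CXCL2 (23.8 and 9.92) and CXCL6 (14.2 and 26.9) were under background on both arrays. The 4 genes lie close together on chromosome 4, with 0 to 4 protein-coding genes between neighbours, and are paralogues with similar sequences.

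Promoter sequence from RefSeq (GRCh38.p14, 250 bases before to 50 after a gene's start) was matched for 34 of the 47 genes. Entries for C1S, C3, CCL2, CSF1, CX3CL1, CXCL16, IL13RA2, IL15, IL18, IL7, LIF, SERPING1 and SLPI were not matched. Promoters were searched on both strands for GGNNTTTCC, a form of the NF-κB site, and TGANTCA, a form of the AP-1 site. The NF-κB letters were in 6.26% of the 35116 promoters in the table and in those of 8 of the 34 matched genes, against 7.61% of all genes in the table. The 8 were CXCL1, CXCL2, CXCL6, CXCL8, IL6, IL32, IL4R and TSLP. The AP-1 letters were in 7.71% of all promoters and in those of 11 of the 34 genes, against 9.37% of genes. The 6 stretches printed here, from 150 to 31 bases before the start and 120 bases long, show where the NF-κB letters (in capitals) stand in the ELR chemokine genes and IL6, which were at background or within 2-fold, and in IL32, which was higher in SB-OG.
CXCL1, chr4:73869243-73869362, plus strand: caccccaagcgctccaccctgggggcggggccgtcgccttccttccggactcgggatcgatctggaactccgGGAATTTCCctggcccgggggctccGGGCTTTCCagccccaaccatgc
CXCL2, chr4:74099226-74099345, minus strand: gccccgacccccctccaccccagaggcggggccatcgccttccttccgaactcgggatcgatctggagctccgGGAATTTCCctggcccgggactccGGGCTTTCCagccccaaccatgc
CXCL6, chr4:73836528-73836647, plus strand: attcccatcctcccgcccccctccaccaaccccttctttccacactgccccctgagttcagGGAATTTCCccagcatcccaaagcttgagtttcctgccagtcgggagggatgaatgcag
CXCL8, chr4:73740419-73740538, plus strand: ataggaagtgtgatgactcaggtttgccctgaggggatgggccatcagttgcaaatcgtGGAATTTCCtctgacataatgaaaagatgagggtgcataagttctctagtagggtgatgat
IL6, chr7:22727050-22727169, plus strand: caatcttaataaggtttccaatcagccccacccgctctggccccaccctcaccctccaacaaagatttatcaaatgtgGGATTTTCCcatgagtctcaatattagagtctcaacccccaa
IL32, chr16:3065253-3065372, plus strand: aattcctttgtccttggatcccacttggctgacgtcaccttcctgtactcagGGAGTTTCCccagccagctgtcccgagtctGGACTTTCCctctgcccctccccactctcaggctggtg
The match began 78 bases before the start in CXCL1, 77 in CXCL2, 89 in CXCL6, 91 in CXCL8 and 72 in IL6, and CXCL1, CXCL2 and IL32 held a second one. CXCL8 also held the AP-1 letters, 137 bases before its start. No NF-κB match overlapped an AP-1 match. Of the genes at least 2-fold lower in SB-OG, 15 had a matched promoter. Of these 15, 0 held the NF-κB letters in this window, too few genes to set apart from the 7.61% of all genes. The AP-1 letters were in 5 of the 15, CXCL14, CD14, CD59, OSMR and TNFAIP6. They were in a similar share, 6 of 17, of the genes within 2-fold or under background. Both matched promoters of higher genes, IL32 and IL4R, held the NF-κB letters, as did 6 of the 17 of genes within 2-fold or under background, 4 of them the related ELR chemokines. A match of letters does not show that a factor was bound there, and a missing match says only that these letters are not in this window.

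**Figure D4:**
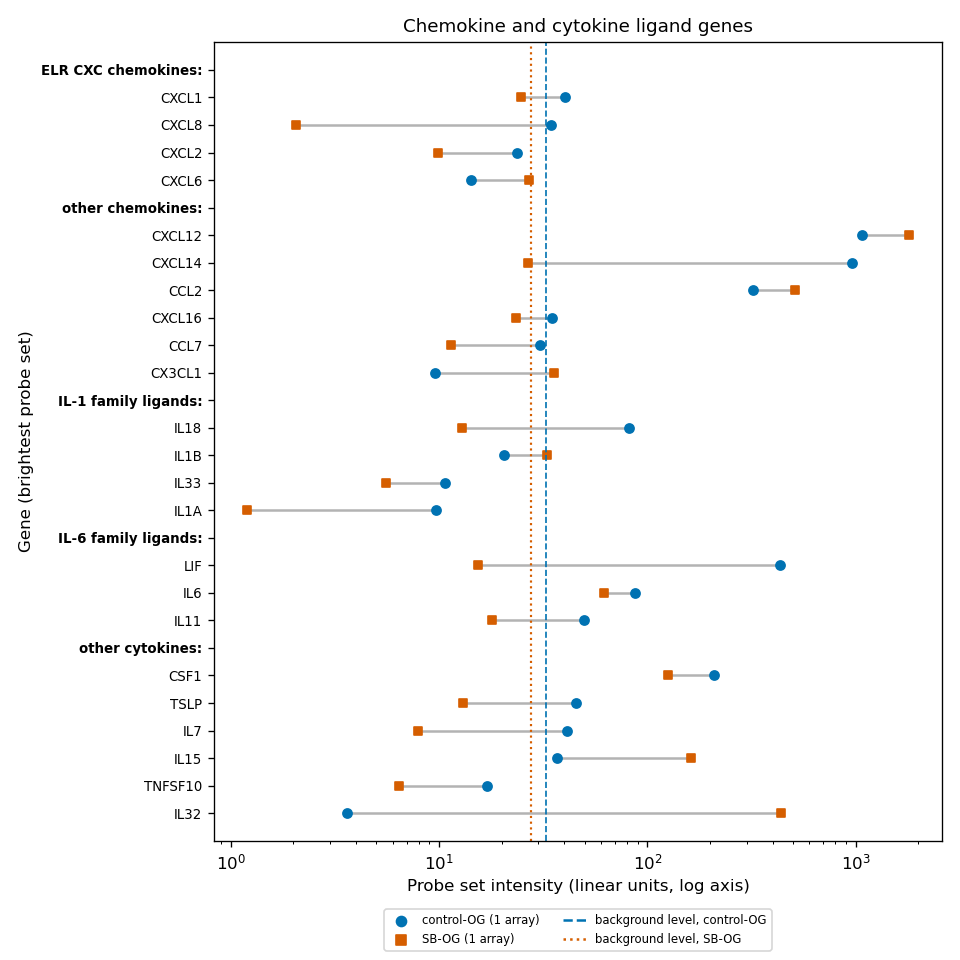
Intensity of the brightest probe set on control-OG (blue circles) and SB-OG (orange squares), on a log axis, for chemokine and cytokine genes, 1 array per condition; vertical lines are the background levels of 32.6 and 27.6. CXCL14 and LIF drop to or below background on SB-OG, IL32 and IL15 lie far to the right on SB-OG, and the 4 ELR chemokines stay near or under background.

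The other chemokines divided. CXCL14, a chemokine of epithelial and stromal tissue, went from 962 on control-OG to 26.7 on SB-OG, at least 34.8-fold lower, and its other probe set above background, at 735 and 4.72, stood at or below -4.74. CXCL12, the stromal ligand of CXCR4, was bright on both arrays and read higher on SB-OG, at 1071 and 1801, a difference of 0.75, with 0.47 by its other probe set. CCL2, which attracts monocytes, also read higher, at 322 and 513, a difference of 0.67. Both were within 2-fold as deposited and passed it after rescaling on the hybridisation controls, at 1.22 and 1.14. CCL7, the next protein-coding gene to CCL2 on chromosome 17, was under background on both arrays (30.7 and 11.5). CXCL16, a membrane-bound chemokine, was at 35.0 and 23.4, and CX3CL1, another membrane-bound one, at 9.54 and 35.5, both near background. Of 15 chemokine receptor genes on the array, 4 were above background. The scavenging receptor gene ACKR3, whose product binds CXCL12, was at least 4.40-fold lower (122 and 17.8), and CXCR4 at least 2.06-fold higher (9.51 and 67.0), with other probe sets at or above 0.27 and 1.43. CXCR4 was at 0.94 after quantile normalization.

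Among the remaining cytokines, IL32 and IL15 were higher in SB-OG and none was called 2-fold lower. For TSLP and IL7 only a lower bound on the fall could be given, which does not show that it was under 2-fold. IL32, a cytokine that induces other inflammatory genes, read 3.63 in the control culture and 437 with the inhibitor, at least 13.4-fold higher, by its single probe set. IL15, a cytokine known to be made by skeletal muscle, went from 36.9, close to background, to 163, a 4.41-fold difference. Its other probe set, 0.65 and 45.8, was above background on SB-OG only and gave at least 0.49. CSF1, the growth factor of macrophages, was at 209 and 126, a difference of -0.73. TSLP, which acts on dendritic cells, was above background on control-OG only (45.6 and 13.1, at least 1.65-fold lower), as was IL7, a lymphocyte growth factor (41.1 and 7.89, at least 1.49-fold lower). TNFSF10, the death ligand TRAIL, was under background by all 3 probe sets, at 17.0 and 6.45 by the brightest.

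The NF-κB pathway, downstream of the IL-1 and TNF receptors, had 19 of 20 genes above background. Of the 19, 3 were at least 2-fold lower, or 15.8%, and none higher. The share lower was near that of all genes above background on either array, 13.0%, while 12.4% of all genes were higher. The median of the pathway genes was -0.34. After rescaling on the hybridisation controls the median was 0.13, with 1 lower and 2 higher. The lower ones were TNFAIP3, an inhibitor that NF-κB itself induces (213 and 54.2, 3.92-fold), the kinase gene IRAK2 (2.39-fold) and the inhibitor gene NFKBIA (578 and 271, 2.13-fold). The other probe set of TNFAIP3 stood at or below -0.51. The subunit genes RELA, at 611 and 472, and NFKB1, at 427 and 585, were within 2-fold. Of 19 NF-κB response genes outside the 47, 9 were above background, with 2 (22.2%) at least 2-fold lower and 1 (11.1%) higher. After quantile normalization 4 were lower. IER3, an early response gene, was 9.82-fold lower, the collagenase gene MMP1 at least 6.83-fold lower, and the urokinase gene PLAU 8.95-fold higher. Of 13 genes of toll-like receptor signalling, 6 were above background. Of the 6, 3 (50.0%) were lower, a count of 2 after centring and 1 after rescaling on the hybridisation controls. LY96, whose product MD-2 works with CD14 at the lipopolysaccharide receptor, read 545 and 51.7, 10.5-fold lower, TLR3 was 2.35-fold lower and the adaptor gene TICAM1 2.07-fold, at -0.76 and -0.58 after that rescaling.

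Markers of several cell types differed alongside these genes, and their part in the results was not tested. The counts below stand beside 13.0% lower and 12.4% higher by 2-fold or more among all genes above background on either array. Of 12 leukocyte markers, 11 were under background on both arrays by their brightest probe set, among them SPI1 and CD163. PTPRC, which encodes the pan-leukocyte protein CD45, was under it by that probe set (29.7 and 7.69), but its 2 other probe sets were above background on control-OG only, at 50.6 and 3.44 and at 38.7 and 2.21. ITGB2 was at 43.8 and 8.01. The summed intensity of the list was 241 in the control culture and 122 with the inhibitor. These sums were mostly of values under background and were not read as a difference. By its brightest probe set, ITGB2 was thus the only leukocyte marker above background, and on control-OG only. Of 12 epithelial markers, 6 were above background, with 4 lower by 2-fold or more and 1 higher. The lower ones included KRT19 (at least 178-fold), KRT8 (51.3-fold) and KRT18 (29.5-fold), while CDH1 was at least 2.54-fold higher. A sum over a list is led by its brightest probe sets. The summed intensity went from 17114, most of it from KRT18, KRT19 and KRT8, to 621. EPCAM (19.9 and 15.7), GRHL2 and CLDN4 were under background on both arrays. These 3 keratin genes read lower on SB-OG, as SLPI, C3 and CXCL14 did. In all, 1626 genes were at least 2-fold lower, and a link between these ones was not tested. The fibroblast markers gave 8 lower and 1 higher, with 6 lower after quantile normalization or lowess and 3 after rescaling on the hybridisation controls. FAP (2030 and 39.7, 51.2-fold), THY1 (3408 and 233, 14.6-fold) and LUM (12034 and 3122, 3.86-fold) were the furthest apart, and the sum went from 111459 to 51850. Of 10 endothelial markers, 3 were above background and 2 lower, KDR (933 and 18.7, at least 33.8-fold) and TEK (404 and under background, at least 14.6-fold). CDH5 and VWF were under background on both arrays, and the sum of the list went from 1424, most of it from KDR and TEK, to 145. Of the skeletal muscle markers, MYH8 (at least 258-fold), TNNI1 (160-fold) and TNNC2 (153-fold) were higher by the largest folds. The sum of the muscle list went from 459 to 61760. IL15 and IL32 also read higher on SB-OG, among 1554 genes at least 2-fold higher, and a link was not tested.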

How the data were processed

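RNA of HUES9 outgrowths was read on 1 Affymetrix array per condition, with 3 samples mixed for each, and labelled with biotin, per the labels. The authors deposited 1 intensity value, on a linear scale, for each probe set. The software they used is not stated in the labels. The mean without the lowest and highest 2% was close to 150.0 on both arrays, so they look scaled to one level, which hides any change in RNA content per cell. Gene names came from the 2016 platform annotation, with symbols updated by gene ID. Of them 41091 had 1 gene, 1801 several and 11721 none, and those with 1 gene were used. No test was possible, and the number of arrays limits the precision. Genes and lists were chosen with earlier results of these data known. Named genes were all 47, with both intensities, and those furthest apart, by 2-fold or more, in each related list (up to 4) and marker list (up to 3). Other genes named, JAK1, STAT3, IL11RA, RELA, NFKB1, CDH1, DNMT3B, ITGB2, PTPRC and markers under background, were chosen after their values were seen. Alternatives were quantile normalization, lowess (span 0.4), centring, rescaling on 18 hybridisation controls, the mean of all probe sets, plain-named probe sets (no _s, _x or _a), background at the 99th percentile, no floor, a pseudocount of 16 and a 3-fold threshold. Plain-named is a rule on letters of the name, and it also dropped _a probe sets, such as the brightest of CD55. The calculation was tested on simulated data. Python 3.11.15, numpy 2.4.6, pandas 2.3.3 and statsmodels 0.14.6 were used.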

Additional observations from a re-analysis of the deposited data

How the results depend on the processing

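The number of genes at least 2-fold lower in SB-OG was 21 as reported and 18 to 25 under the other normalizations, background settings and the mean of all probe sets. It was 16 at 3-fold, and 13 with only plain-named probe sets, which left 28 of the 47 genes above background. The number at least 2-fold higher was 3, and it was 5 after rescaling on the hybridisation controls and 1 with plain-named probe sets. Rescaling on the hybridisation controls also changed the share of all genes that were higher from 12.4% to 24.1% and of those lower from 13.0% to 7.27%. The median difference of the genes above background, -1.20, was -0.73 after that rescaling, when the median of all genes was 0.45, and -1.69 without a floor. Apart from the 3-fold threshold, 17 of the 24 genes at least 2-fold apart stayed so under every alternative that gave a value for them. With plain-named probe sets 10 of the 24 had no value. The other 7 were IL18, CFB, CD46, IL13RA2, IL6ST, TNFRSF1A and IL4R, and IL4R was at 0.95 with the pseudocount. None of the 24 changed sign. Without a floor CXCL8, IL7, TSLP and IL11 were more than 2-fold lower and CX3CL1 higher, differences that rest on values under background. No paired analysis was possible because each condition had 1 array, and for the same reason no replicate could be left out.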
